A study of Mus musculus with 3 samples.

Results

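The 10 genes described here are Pdgfra, Pdgfrb, Thy1, Dcn, Lum, Fn1, Vim, Acta2, Cdh2 and Rgs5, which are used as markers of fibroblasts, mural cells (the pericytes and smooth muscle around vessels) and other mesenchymal cells. They were taken by symbol from a list, and each had 1 probe set that the platform annotation assigns to that gene alone, so all 10 were measured among 19938 such genes. RNA of sorted mouse pancreatic cells was hybridised to 3 arrays, 1 per group, each from a pool of animals. The beta cell array came from 3 untreated Fbw7 +/+ mice with the MIP-GFP reporter. The array of Fbw7-deleted ductal cells came from 6 mice that were Fbw7 F/F and carried Ck19-CreERT with R26-LSL-YFP, and the array of wild-type ductal cells from 6 mice with the same Cre and reporter that were Fbw7 +/+. Both ductal groups received tamoxifen for 5 days and were collected 7 days after the last dose. All mice were C57BL/6 and more than 6 weeks old. The yellow label marks any cell in which the keratin 19 promoter had driven the Cre, and keratin 19 is also made by mesothelial cells, the lining of the abdominal organs. Beta and ductal cells differ in cell type, reporter, tamoxifen and number of pooled mice together, and these cannot be told apart. The Ck19-CreERT transgene is given for the ductal mice only.

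Mesenchymal cells make the matrix and the contractile walls of an organ. Fibroblasts are recognised by receptors for platelet-derived growth factors, by the small proteoglycans that coat collagen fibrils and by fibronectin; pericytes and smooth muscle by contractile actin and regulators of receptor signalling. Vimentin and N-cadherin are used as signs of a mesenchymal state in cells of many origins, mesothelium included.

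Values are log2 intensities made by the authors with RMA, a background correction, normalization and probe summary. The floor of an array was the median level of its single-gene probe sets, 5.30 in beta cells, 5.24 in deleted and 5.23 in wild-type ductal cells. A difference is that of 2 log2 levels, and 2-fold is a difference of 1. Each group is 1 array, so the spread between replicates is unknown, no test can be made and the precision is limited by that number. In sorted pools, fewer cells of a type and less RNA per cell cannot be told apart.

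Of the 10 genes, 9 had a lower level in Fbw7-deleted ductal cells than in wild-type ones and 1, Rgs5, a higher level, where 35.3% of the 10052 genes above the floor on at least 1 of these arrays were lower and 16.3% higher. Pdgfra (3.96-fold), Fn1 (2.50-fold), Cdh2 (at least 2.45-fold, since its level in deleted cells was below the floor) and Pdgfrb were lower by the 2-fold measure as deposited, which is 4 of 10, and 0 of 10 were 2-fold higher. Over all 10052 genes, 1.81% were at least 2-fold lower and 1.43% at least 2-fold higher. The median difference of the 10 genes was -0.59, beside a median of 0 over all genes, of which 48.3% held identical values on both ductal arrays. In beta cells 8 of the 10 genes were at least 2-fold lower than in wild-type ductal cells and 0 were 2-fold higher, where 25.6% of 11228 genes were 2-fold lower and 6.32% 2-fold higher.

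**Figure D1:**
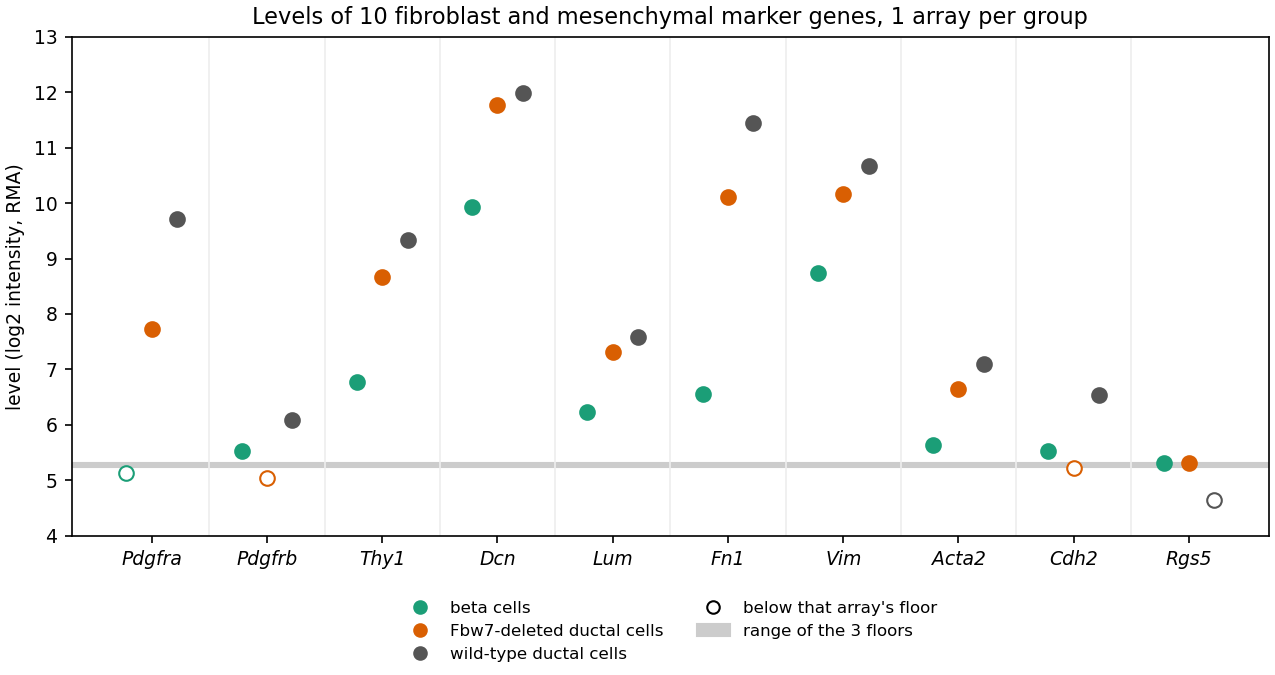
Level of each gene (y axis, log2 intensity) on the 3 arrays, 1 point per array: beta cells, Fbw7-deleted ductal cells and wild-type ductal cells from left to right; open points lie below the floor of their array and the grey band spans the 3 floors. In 7 genes the points step up from beta to deleted to wild-type ductal cells; Pdgfrb and Cdh2 are lowest in deleted cells, and Rgs5 is lowest in wild-type ductal cells.

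All 10 genes were above the floor on at least 2 arrays. Of them 6 were above it on all 3, and 4 were below it on 1: Pdgfra in beta cells, Pdgfrb and Cdh2 in deleted ductal cells and Rgs5 in wild-type ductal cells. Among all 19938 genes, 11304 were above the floor on at least 1 array, and the share above it on 2 or 3 was not counted. The order of the 3 levels separated the 10 genes into 3 kinds. Pdgfra, Thy1, Dcn, Lum, Fn1, Vim and Acta2, 7 of 10, were highest in wild-type ductal cells, intermediate in deleted ductal cells and lowest in beta cells. This order was held by 24.5% of the 11304 genes above the floor on at least 1 array. Pdgfrb and Cdh2 were highest in wild-type ductal cells, next in beta cells and lowest in deleted cells, and Rgs5 held the same value in beta and deleted cells, above that of wild-type ductal cells. Which neighbours in an order differ beyond array-to-array spread cannot be given with 1 array per group.

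RefSeq promoter windows of assembly GRCm38.p6, from 250 bases before to 50 bases after the annotated start, were matched for 4 of the 10 genes. All 4 that matched are shown, so that these start regions can be read beside the differences. Between the ductal arrays Pdgfra had the largest difference of the 10 genes, Vim and Acta2 had smaller ones in the same direction, and Rgs5 had the opposite sign. That of Rgs5 rests on a wild-type level below the floor and was 0.07 against the floor. Pdgfra lies at chr5:75152001-75152300 (plus strand), Vim at chr2:13574061-13574360 (plus), Acta2 at chr19:34255324-34255623 (minus) and Rgs5 at chr1:169655251-169655550 (plus), each printed 5′ to 3′ on the gene's strand. Capitals mark matches to the motifs searched.
Pdgfra: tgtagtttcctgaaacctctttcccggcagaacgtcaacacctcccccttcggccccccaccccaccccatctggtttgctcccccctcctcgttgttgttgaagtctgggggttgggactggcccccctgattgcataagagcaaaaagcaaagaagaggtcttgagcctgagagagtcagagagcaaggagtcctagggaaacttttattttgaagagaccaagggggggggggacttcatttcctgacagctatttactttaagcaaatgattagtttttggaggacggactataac
Vim: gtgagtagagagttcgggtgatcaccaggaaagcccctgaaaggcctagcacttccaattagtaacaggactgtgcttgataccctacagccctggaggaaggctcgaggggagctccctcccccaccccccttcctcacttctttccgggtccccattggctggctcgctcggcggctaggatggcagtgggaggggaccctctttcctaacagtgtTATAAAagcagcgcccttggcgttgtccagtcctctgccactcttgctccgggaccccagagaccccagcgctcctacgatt
Acta2: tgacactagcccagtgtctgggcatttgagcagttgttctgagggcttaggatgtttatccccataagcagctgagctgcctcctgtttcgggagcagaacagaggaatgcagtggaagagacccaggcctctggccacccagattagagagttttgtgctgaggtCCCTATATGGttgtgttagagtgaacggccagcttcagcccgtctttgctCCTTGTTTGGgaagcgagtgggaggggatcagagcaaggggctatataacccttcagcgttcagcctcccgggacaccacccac
Rgs5: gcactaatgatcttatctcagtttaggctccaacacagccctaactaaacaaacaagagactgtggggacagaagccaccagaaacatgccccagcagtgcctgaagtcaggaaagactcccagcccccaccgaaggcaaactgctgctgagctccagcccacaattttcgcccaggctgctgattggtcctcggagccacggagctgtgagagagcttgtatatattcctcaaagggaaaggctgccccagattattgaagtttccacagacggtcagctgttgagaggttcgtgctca

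Letters searched on both strands were the CArG box, which serum response factor binds in smooth muscle genes, the E-box CAGGTG, the GC box GGGCGG and TATAAA. No window held an exact CArG box, which 1.63% of all 32851 windows hold. With at most 1 letter off, a setting chosen after the exact search, Acta2 held it at 2 places, starting 84 and 34 bases before the start, and the other 3 windows held none; 21.1% of all windows hold such a match. Vim held TATAAA starting 32 bases before the start, as 13.6% of windows do on either strand. CAGGTG (20.2% of windows) and GGGCGG (35.7%) were found in none of the 4 windows. A match describes letters and is not shown to be a site in use.

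Pdgfra encodes the alpha receptor for platelet-derived growth factors, a marker of fibroblasts. It read 5.14 in beta cells, 7.73 in deleted ductal cells and 9.71 in wild-type ductal cells. The groups lay far apart on this gene, with beta cells below the floor. The difference of deleted minus wild-type ductal cells was -1.99, rank 16 of 10052 genes counted from the most negative. Beta cells were at least 21.2-fold lower than wild-type ductal cells and at least 5.36-fold lower than deleted ductal cells, both taken against the floor.

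Pdgfrb encodes the beta receptor, which pericytes, smooth muscle and many fibroblasts carry. Its levels were 5.53 in beta cells, 5.05 in deleted ductal cells and 6.09 in wild-type ductal cells. Only the wild-type ductal level stood clearly off the floor, and that of deleted cells was below it. The measured difference between the ductal arrays was -1.04; with the deleted level raised to the floor it was -0.85, which is at least 1.80-fold and no longer 2-fold. Beta cells were at -0.55 against wild-type and at 0.49 against deleted ductal cells; with the deleted level raised to the floor the second value was 0.29. Pdgfra and Pdgfrb therefore shared their direction between the ductal arrays and had opposite signs between beta and deleted cells.

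Thy1, a surface glycoprotein of fibroblasts, neurons and T cells in the mouse, read 6.78 in beta cells, 8.67 in deleted and 9.34 in wild-type ductal cells. All levels were above the floor. The deleted cells were 1.59-fold lower than wild-type cells (-0.67), and beta cells were 5.90-fold lower than wild-type and 3.72-fold lower than deleted cells.

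Dcn and Lum encode decorin and lumican, small leucine-rich proteoglycans that bind collagen fibrils. Dcn read 9.92 in beta cells, 11.76 in deleted ductal cells and 11.98 in wild-type ductal cells. Lum read 6.23 in beta cells, 7.32 in deleted ductal cells and 7.59 in wild-type ductal cells. Between the ductal arrays these were the 2 smallest differences among the 10 genes, -0.22 for Dcn and -0.26 for Lum. At these sizes 20.5% of all genes were more negative than Dcn and 18.1% more negative than Lum. Beta cells were lower than wild-type ductal cells by 4.16-fold for Dcn and 2.56-fold for Lum.

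Decorin and lumican genes lie next to each other in the GRCm38.p6 annotation, followed by Kera and Epyc, which encode keratocan and epiphycan of the same family. Kera read 4.13 in beta cells and 3.79 in both ductal arrays, and Epyc 4.69 in beta cells, 4.03 in deleted and 3.85 in wild-type ductal cells. Both were below the floor on all 3 arrays, so that in this row of genes Dcn and Lum were above the floor. Of 9 other leucine-rich proteoglycan genes measured, 5 were above the floor on a ductal array. Among them Bgn, encoding biglycan, was at 8.70 in deleted ductal cells, 2.48-fold below wild-type ones (-1.31), Ogn, encoding osteoglycin, at -0.71, and Prelp and Podn were identical on both. Relative to wild-type ductal cells, beta cells were at least 2-fold lower in all 5 as measured, from Bgn at -4.10 to Podn at -1.06, with Fmod at -3.03 as measured and -1.93 against the floor. Over all genes 25.6% were at least 2-fold lower in this comparison.

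Fn1 encodes fibronectin, a matrix glycoprotein that cells bind through integrins. Its level was 6.56 in beta cells, 10.12 in deleted ductal cells and 11.44 in wild-type ductal cells, all above the floor. The ductal arrays differed by -1.32 (2.50-fold lower in deleted cells), rank 74 of 10052 from the most negative. Beta cells were 29.4-fold lower than wild-type ductal cells, rank 26 of 11228, and 11.8-fold lower than deleted cells. This was the largest difference among the 10 genes in both comparisons with beta cells.

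Of 10 genes for fibronectin receptors and matrix partners, 8 were above the floor, and all 8 had lower levels in the deleted cells, with a median of -0.50 and 1 of them 2-fold lower, beside 35.3% and 1.81% of all genes. That gene was Tgm2, the transglutaminase that cross-links matrix proteins, at 9.06 in deleted and 10.16 in wild-type cells. Sdc2, a syndecan, was at -0.68, and the integrin chain genes Itga5 and Itgb3 were at -0.31 and -0.26. In beta cells 6 of the 8, beside 25.6% of all genes, were at least 2-fold lower than in wild-type ductal cells, led by Tgm2 (-3.47) and Itgav (-3.40), the integrin alpha V gene.

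Vim encodes vimentin, the intermediate filament of mesenchymal cells. It read 8.74 in beta cells, 10.16 in deleted ductal cells and 10.67 in wild-type ductal cells. The difference between the ductal arrays was -0.51, or 1.42-fold, and 9.16% of all genes were more negative. Beta cells were 3.79-fold lower than wild-type ductal cells. Among other cytoskeletal genes the keratin genes Krt8 and Krt18 went the opposite way between the ductal arrays, at 0.96 and 1.05, while Actb, encoding the cytoplasmic beta actin, was at -0.24.

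Acta2 encodes the smooth muscle alpha actin of mural cells and activated fibroblasts. It read 5.63 in beta cells, 6.65 in deleted ductal cells and 7.11 in wild-type ductal cells. The levels were above the floor on all arrays, with beta cells nearest to it. Deleted cells were at -0.45 against wild-type cells (1.37-fold lower), and beta cells were 2.78-fold lower than wild-type and 2.03-fold lower than deleted cells.

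Cdh2 encodes N-cadherin, a cell adhesion protein of mesenchymal, neural and mesothelial cells. Its levels were 5.53 in beta cells, 5.22 in deleted ductal cells and 6.53 in wild-type ductal cells. Deleted cells lay just below the floor and beta cells just above it. The difference between the ductal arrays was -1.31, or -1.29 against the floor, rank 78 of 10052 from the most negative. Beta cells were at -1.01 against wild-type cells, only just 2-fold, and at 0.30 against deleted cells, 0.29 against the floor.

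The epithelial cadherin gene Cdh1 had the opposite sign between the ductal arrays. Cdh1 read 6.92 in beta cells, 9.17 in deleted ductal cells and 6.54 in wild-type ductal cells, so that the difference of deleted minus wild-type cells was 2.63. Of 8 other cadherin genes measured, 5 were above the floor in this comparison: 2 were at least 2-fold higher, Cdh1 and Cdh6 (1.26, or 1.05 against the floor), and 1 was lower, the fibroblast cadherin gene Cdh11 at -0.49. Over all genes 1.43% were at least 2-fold higher in this comparison and 35.3% were lower. In beta cells Cdh11 was at -3.67 against wild-type ductal cells.

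Rgs5 encodes a regulator of G protein signalling that marks pericytes. It read 5.31 in beta cells, 5.31 in deleted ductal cells and 4.65 in wild-type ductal cells. The wild-type ductal level was below the floor, and the others were just above it. The measured difference between the ductal arrays was 0.66, the only positive value among the 10 genes, and 0.07 once the wild-type level was raised to the floor. Beta cells gave the same 2 values against wild-type ductal cells and a difference of 0 against deleted cells.

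**Figure D2:**
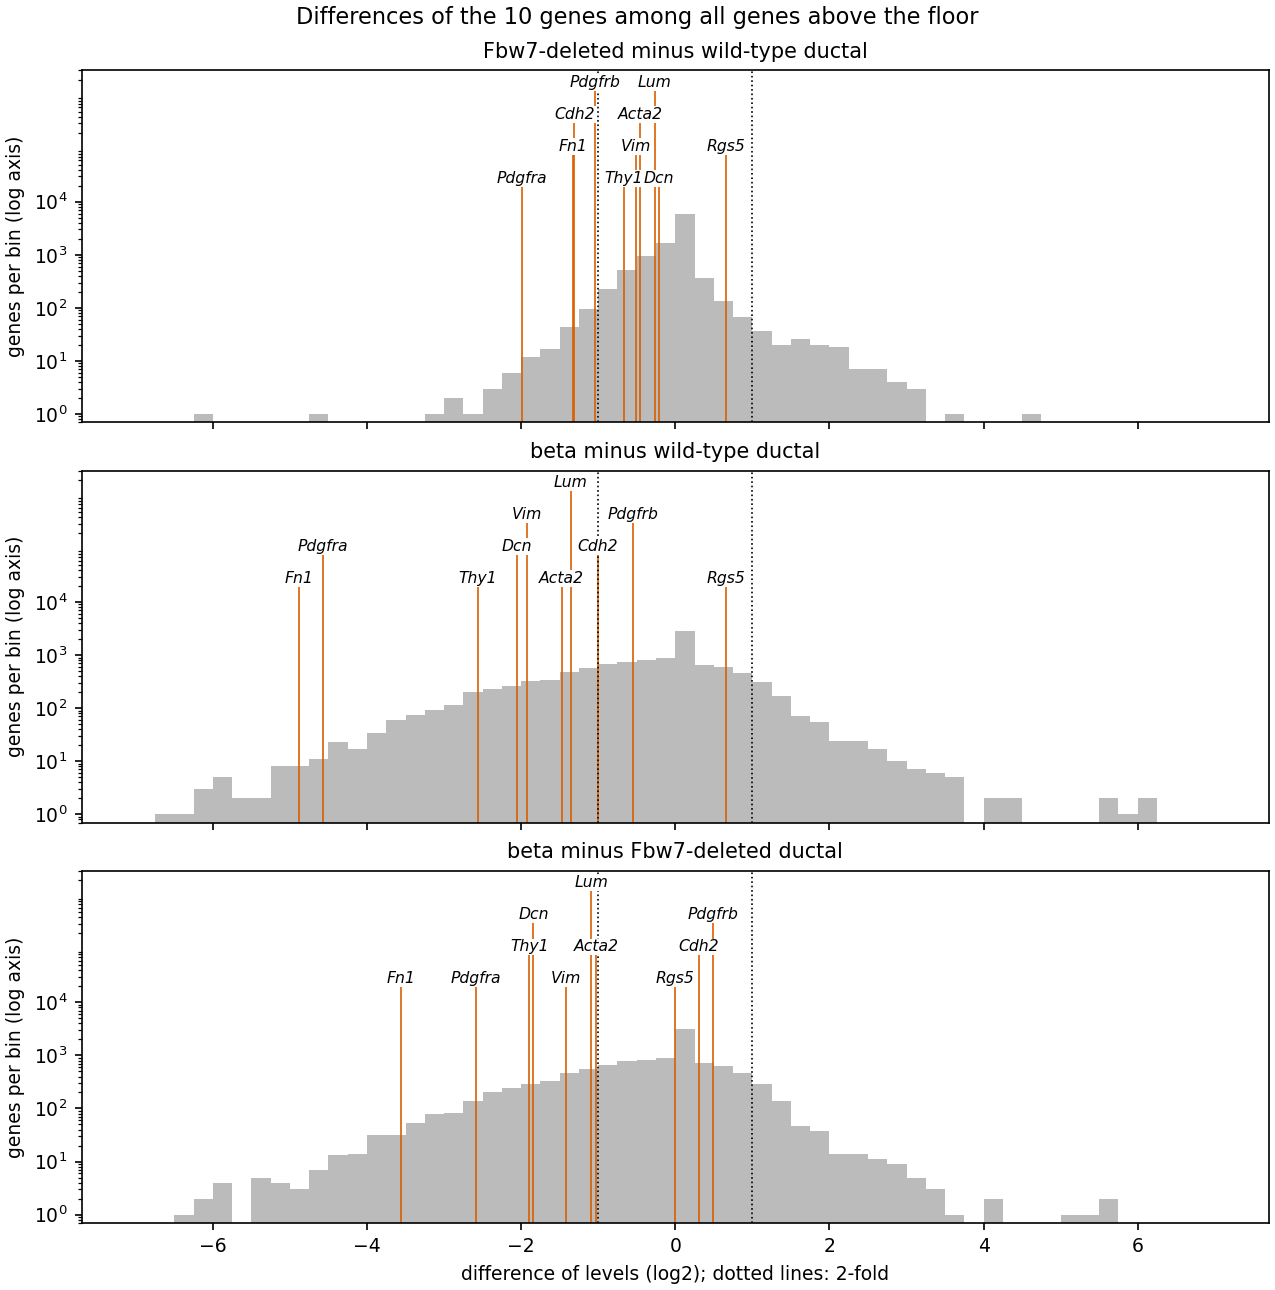
Difference of log2 levels (x axis) in 3 comparisons, with the number of genes per bin of 0.25 (y axis, log scale) for all genes above the floor in grey and a line for each of the 10 genes; identical values fall in the bin that starts at 0. Between the ductal arrays Pdgfra stands farthest out on the low side at -1.99, and in both comparisons with beta cells Fn1 does, at -4.88 and -3.56.

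The median difference of the 10 genes was -1.70 for beta against wild-type ductal cells and -1.25 against deleted ductal cells, where 7 of 10 were at least 2-fold lower and 0 were 2-fold higher. Against deleted cells 22.8% of 11176 genes were 2-fold lower and 5.09% 2-fold higher. These comparisons share arrays, so their values are given side by side and not as separate support. High levels were lower in beta cells in general: among 6563 genes with a level above the 75th percentile of their array, 39.7% were 2-fold lower than in wild-type ductal cells and the median was -0.62. With this trend on the mean level removed, the count of the 10 genes was 4 against wild-type cells, with a median of -0.84, and 3 against deleted cells, with a median of -0.63. Over all genes 15.9% were then 2-fold lower against wild-type cells and 15.2% against deleted cells. Fn1 (-3.35), Pdgfra (-3.39), Thy1 (-1.10) and Acta2 (-1.03) stayed at least 2-fold lower than in wild-type cells, while Dcn (-0.90), Lum (-0.57), Vim (-0.53) and Cdh2 (-0.78) did not, and Rgs5 went to -0.15. After quantile normalization 5 of the 10 genes were 2-fold lower than in wild-type ductal cells and 4 than in deleted cells. The shares of all genes under that setting were 17.8% and 16.8%. Among all 2-fold calls against wild-type cells, 19.8% were higher in beta cells as deposited and 37.3% after quantile normalization. Quantile normalization moved the median of all genes in that comparison by 0.19 and the loess trend by 0.11.

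Between the ductal arrays the values of the 10 genes moved less with the scaling. The 2-fold count was 4 as deposited, with each array centred and with the trend removed, and 3 after quantile normalization, where Pdgfrb was at -0.91. The shares of all genes 2-fold lower were 1.81%, 1.87%, 1.63% and 0.915%, in that order. Pdgfra ranged from -1.99 to -1.78, Fn1 from -1.57 to -1.24 and Cdh2 from -1.31 to -1.13 over these 4 scalings. Dcn ranged from -0.59 after quantile normalization to -0.15 with the trend removed. Over all genes 44.2% of the 2-fold calls were higher in deleted cells as deposited and 60.3% after quantile normalization.

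**Figure D3:**
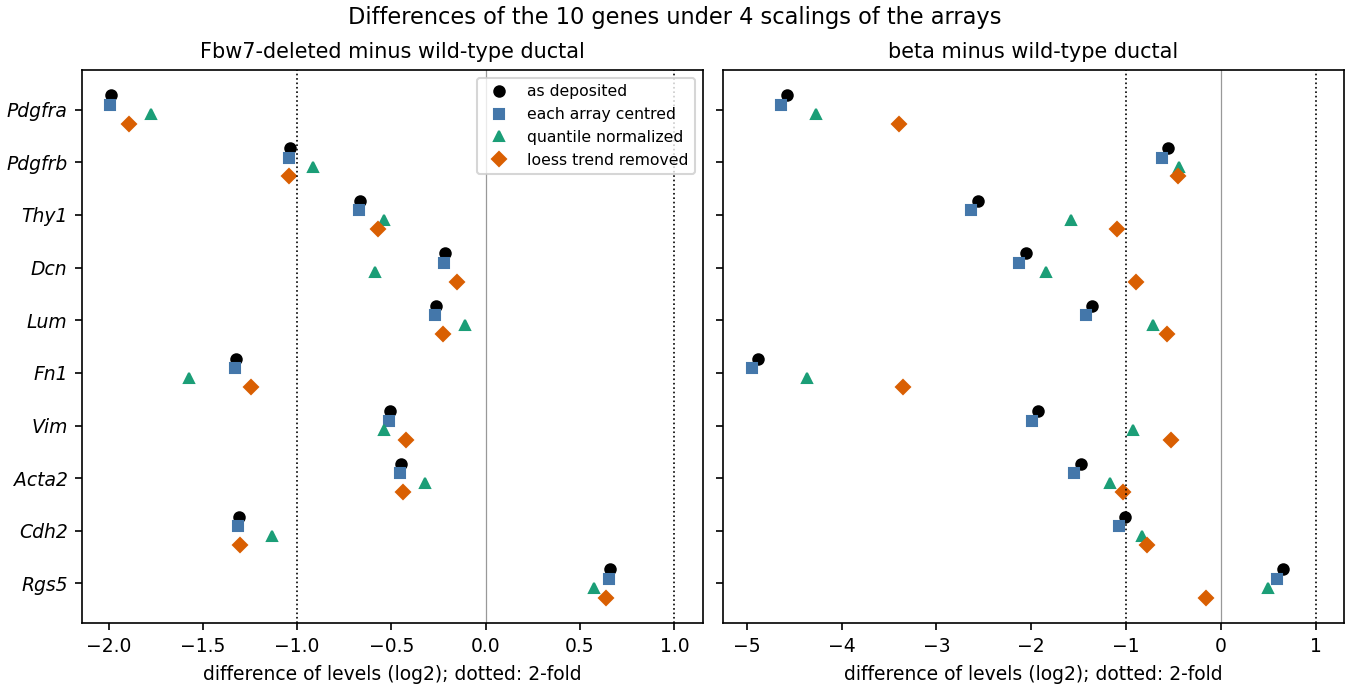
Difference of log2 levels (x axis) of each gene under 4 scalings of the arrays, for deleted minus wild-type ductal cells (left) and beta minus wild-type ductal cells (right); dotted lines mark 2-fold. Pdgfra, Fn1 and Cdh2 stay beyond 2-fold on the left under all 4, while on the right Dcn, Lum, Vim and Cdh2 come inside 2-fold with the loess trend removed.

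Lists beside the 10 genes are described over members above the floor on at least 1 of the arrays compared, which are not all their members. Other fibroblast genes had lower levels in deleted cells, relative to wild-type ductal cells, in 15 of 19 genes above the floor, with a median of -0.56; 5 were at least 2-fold lower and 0 higher. Of all genes 35.3% were lower, 1.81% at least 2-fold. The gelatinase gene Mmp2 was at 5.89 in deleted and 8.06 in wild-type cells (-2.17), and Fbln1, encoding the matrix protein fibulin 1, at -1.41. The elastin gene Eln was at 0.29, the 1 member with a positive value, and Gli1, a transcription factor of the hedgehog pathway, was identical. In beta cells 14 of 21 were at least 2-fold lower than in wild-type ductal cells and 2 higher, beside 25.6% and 6.32% of all genes. The low side was led by S100a4, a calcium-binding protein gene (at least 26.6-fold lower), and Col1a2, a chain of type I collagen (-4.40). Dpt, encoding the matrix protein dermatopontin, had the opposite sign: it read 7.21 in beta cells, 3.77 in deleted and 4.40 in wild-type ductal cells, at least 3.93-fold higher in beta cells by the wild-type floor. The second gene on the high side, the transcription factor gene Tcf21, was at 1.25 as measured and at 0.17 against the floor.

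Mural genes differed in both directions, and stellate cell genes were mostly below the floor. Of 18 other mural genes, 10 were above it in the comparison of the ductal arrays, with a median of -0.07; Des, the desmin gene, was at -1.02 and Ndufa4l2, a mitochondrial protein gene used as a pericyte marker, at -0.91. The vitronectin gene Vtn and the Notch target Heyl were at 0.35 and 0.33, the second 0.18 against the floor. Between beta and wild-type ductal cells the mural median was 0 over 12 genes, with 1 gene at least 2-fold lower, Ndufa4l2 at -2.76 (-2.24 against the floor), and 1 higher, Vtn at 1.24. Over all genes 25.6% were at least 2-fold lower and 6.32% at least 2-fold higher. Of 9 measured stellate cell genes, only Ngfr, a neurotrophin receptor gene, was above the floor, at 6.60 in beta cells and 5.73 in both ductal arrays.

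Ligands and transducers around the receptors differed less than Pdgfra between the ductal arrays. Of 14 genes of the PDGF and TGF-beta pathways above the floor, 6 were identical, 6 lower and 2 higher, with a median of 0. Over all genes 48.3% were identical, 35.3% lower and 16.3% higher, also with a median of 0. The 2 higher genes of these pathways were ligand genes: Pdgfc read 6.44 in deleted and 5.44 in wild-type cells, just past 2-fold, and Pdgfd 7.75 in deleted and 6.85 in wild-type cells (0.89). Tgfbr2 and Tgfbr1, receptor genes for TGF-beta, were the lowest at -0.32 and -0.27. In beta cells Tgfbr3, the co-receptor betaglycan, was at -2.99 against wild-type ductal cells and Pdgfb, a ligand gene, at 1.21, or 0.68 against the floor.

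Transcription factors of mesenchymal identity and transition were led by Prrx1, a homeobox factor of fibroblasts, which read 5.49 in beta cells, 5.05 in deleted and 6.99 in wild-type ductal cells. Its difference between the ductal arrays was -1.95, or -1.75 against the floor. The other 6 factors above the floor lay between -0.68 (Zeb2) and 0.12 (Tcf4), and Snai2 was identical. Prrx1 was also the lowest of them in beta against wild-type ductal cells, at -1.50, while Zeb1 was at 0.43.

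**Figure D4:**
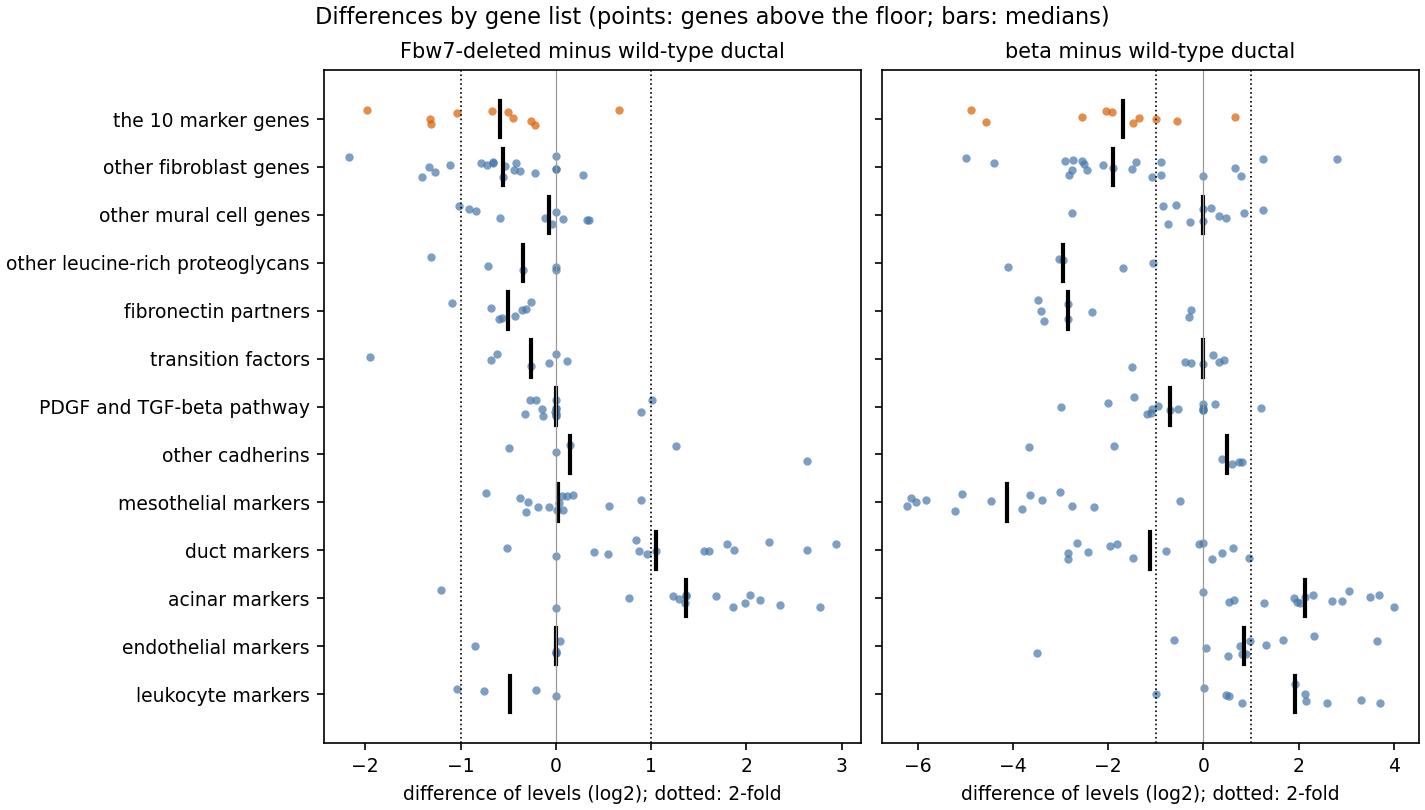
Difference of log2 levels (x axis) for genes above the floor in each list (rows), with the list's median as a bar, for deleted minus wild-type ductal cells (left) and beta minus wild-type ductal cells (right). On the left the 10 marker genes (median -0.59) and other fibroblast genes (-0.56) lie low, duct (1.05) and acinar markers (1.36) lie high and mesothelial markers (0.03) centre on 0; on the right mesothelial markers are lowest (-4.13).

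Markers of other cell types moved between the arrays too, and their part in the differences of the 10 genes was not tested. Mesothelial markers were above the floor in 14 of 14 genes on both ductal arrays, at 7.22 to 10.83 in deleted and 6.33 to 10.62 in wild-type cells, against 3.82 to 6.33 in beta cells, where 8 of 14 were above it. Their median difference was 0.03 between the ductal arrays, with 0 genes 2-fold apart, and -4.13 between beta and wild-type ductal cells. Msln, encoding mesothelin, read 5.53 in beta cells, 10.73 in deleted and 10.61 in wild-type ductal cells. Of 15 duct markers above the floor, 8 were at least 2-fold higher in the deleted cells (median 1.05), with Krt19 at 9.53 in deleted and 9.13 in wild-type cells, and of 15 acinar markers 12 were (median 1.36), beside 1.43% of all genes. The acinar marker Ctrc went the other way at -1.21, the 1 of the 15 at least 2-fold lower, beside 1.81% of all genes. Among the duct markers 1 was lower, Aqp1 at -0.51. Between beta and wild-type ductal cells 12 of 15 acinar markers were at least 2-fold higher in beta cells, beside 6.32% of all genes. Their median was 2.13, with the zymogen granule gene Cuzd1 at 4.01. In the same comparison 7 of 14 duct markers were at least 2-fold lower (median -1.13), beside 25.6% of all genes. Another 4 duct markers were higher in beta cells, led by Onecut1 (0.95) and Ambp (0.63).

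Blood and vessel markers were mostly at or below the floor in the ductal arrays. Of 14 endothelial markers 5 were above it in each ductal array and 12 in beta cells; Pecam1 read 6.73 in beta cells and 4.40 in both ductal arrays. Cd34, which fibroblasts make as well as endothelium, read 6.90 in beta cells, 9.54 in deleted and 10.39 in wild-type ductal cells. Of 14 leukocyte markers 4 were above the floor in each ductal array and 11 in beta cells, and Ptprc read 5.88 in beta cells and lay below the floor in both ductal arrays. Cd74 read 7.53 in beta cells, 7.77 in deleted and 8.53 in wild-type ductal cells. H2-Ab1 read 8.21 in beta cells, 6.64 in deleted and 7.67 in wild-type ductal cells. Between the ductal arrays the 4 markers had a median of -0.48. Of these, 1 was at least 2-fold lower in deleted cells, H2-Ab1 at -1.03, beside 1.81% of all genes. The insulin gene Ins2 read 11.04 in beta cells, 5.87 in deleted and 5.31 in wild-type ductal cells. Of 13 beta cell markers measured, 9 were above the floor in beta cells and 3 in each ductal array. Against wild-type ductal cells 7 of the 9 were at least 2-fold higher as measured (median 2.44, or 1.61 against the floor), beside 6.32% of all genes. Slc2a2 did not follow Ins2, with 6.05 in beta cells, 6.90 in deleted and 5.64 in wild-type ductal cells. Mafa held the same value, 5.49, on all 3 arrays. Of 5 Schwann cell markers measured, 3 were above the floor in beta cells, 1 in deleted and 2 in wild-type ductal cells, and Mbp was identical on all 3 arrays.

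The targeted gene, Fbxw7, had 2 probe sets. The first read 4.95 on all arrays; the second read 7.00 in beta cells, 5.71 in deleted and 6.32 in wild-type ductal cells. No source used here places these probes relative to the floxed exons, so their levels are no check of the deletion.

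The genes whose pattern was nearest to that of the 10 were found by the Euclidean distance of their 2 differences, deleted minus wild-type ductal and beta minus wild-type ductal, from the medians of the 10 genes, among 10859 genes on 3 arrays. They were Celf2 (-0.59 and -1.71), Dctn5 (-0.58 and -1.71), Cst3 (-0.57 and -1.70), Pcdh7 (-0.61 and -1.68) and Lars (-0.55 and -1.74), at distances of 0.0092 to 0.054. The wild-type ductal array enters both.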

How the data were processed

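RNA (18 ng) from 30000 sorted cells per array was amplified by the NuGEN WT-Ovation Pico system and biotin-labelled, per the labels' protocols. The deposited values are log2 intensities made by the authors with RMA, per the submitters' processing notes; no source used here gives its version or says whether the arrays were normalized jointly. The arrays do not share 1 distribution: the 75th percentile of single-gene probe sets was 6.02 in beta cells, 6.41 in deleted and 6.49 in wild-type ductal cells, so a difference between arrays holds relative to their scaling. The platform annotation named exactly 1 gene for 21789 of 35556 probe sets, and 21698 of these were matched by gene ID to RefSeq (GRCm38.p6). Where a gene had several, that with the highest mean level represented it.

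A gene entered a comparison if at least 1 of its levels exceeded the floor, the median level of an array's single-gene probe sets. Differences of log2 levels were counted at 2-fold, beside all genes. "At least" before the fold of a single gene, other than a threshold, marks the lower level raised to its floor. Calls of at least 2-fold use the levels as measured. Alternatives changed the floor (none, the 75th percentile, or levels raised to it), the threshold (1.5-fold, 4-fold), the scaling (quantile normalization, centring, a loess trend of span 0.3 removed) or averaged a gene's probe sets. The 10 genes and all lists were chosen with earlier results of these data known. Named genes are the 10, up to the 2 highest and 2 lowest of each list in a comparison, the 5 nearest to the medians of the 10, Fbxw7 and checks of cell type (Ins2, Krt19, Cdh1, Msln, Pecam1, Ptprc). Kera and Epyc were named for their place beside Lum after their values were seen. Comparison of protein sequences was not analysed here. The counting steps were tested on simulated data. Software was Python 3.11.15 with pandas 2.3.3, numpy 2.4.6, matplotlib 3.10.9 and statsmodels 0.14.6.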

Additional observations from a re-analysis of the deposited data

How the results depend on the processing

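Of 75 counts and medians of the 10 genes recomputed under the alternatives, 62 stayed within 1.5 times (counts) or 1.5-fold (medians) of the reported value. Between the ductal arrays, 1.5-fold in place of 2-fold gave 1 gene higher in deleted cells, beside 2.81% of all genes. At 4-fold 0 were lower, beside 0.149% of all genes. For beta against wild-type ductal cells, the count lower was 5 with a median of -1.05 after quantile normalization, beside 17.8% of all genes. It was 4 with a median of -0.84 with the loess trend removed (15.9% of all genes) and 4 at 4-fold (10.3%). At 1.5-fold 1 gene was higher, beside 13.9% of all genes. For beta against deleted ductal cells, the count lower was 4 after quantile normalization, beside 16.8% of all genes. It was 3 with a median of -0.63 with the loess trend removed (15.2% of all genes) and 2 at 4-fold (8.19%). The median was -1.84 over the 7 genes left by the floor at the 75th percentile, beside -0.49 over all genes left by it. Beyond what fewer genes or a stricter threshold explain by construction, the cause was not tested. Some of these could not differ: each of the 10 genes had 1 probe set and was above the floor on at least 1 array of each comparison, so averaging probe sets or dropping the floor changed nothing. Under the 3 other scalings and with levels raised to the floor, 76 differences of single genes that were 2-fold apart as reported were recomputed. Of these, 76 kept their sign and 60 stayed 2-fold apart. Centring could hardly move them, since it shifted all differences of a comparison alike, by -0.0052 to -0.070. Raising to the floor changed only genes with a level below it, and of these only Pdgfrb between the ductal arrays (-0.85) left 2-fold. All other losses of 2-fold came with quantile normalization or the loess trend removed. No paired analysis was possible because each group is 1 array. Levels near the floor (Pdgfrb, Cdh2 and Rgs5) limit what their differences show.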
